A study of Mus musculus with 5 samples.

Results

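Genes of class I antigen presentation and of the interferon response were followed in embryonic mouse cortical cells that had been made to express Ptf1a, a basic helix-loop-helix factor of inhibitory neurons and pancreatic acinar cells. The 40 genes were taken by symbol from a gene table of 23234 rows, and all 40 had a row. Cortices of CD1 embryos were electroporated at E12.5 and collected at E15.5 (embryonic days), and cells carrying the label were sorted by fluorescence. One group received a construct with Ptf1a and GFP (3 samples), the other a construct with GFP alone (2 samples), so electroporation, GFP and sorting were common to both. Each sample pooled the sorted cells of 3 to 6 brains, between 58000 and 106000 cells. The cells were labelled as cortical pyramidal cells. The 10 pyramidal markers used were all present and tested, the highest being Neurod6 at 1716.95 FPKM in the GFP-only control. The 8 radial glia markers used were all tested too, the highest being Fabp7 at 1651.75 FPKM in that control, so progenitor transcripts were also present. Per-sample values were not analysed here, so each level below is the authors' single value per group in FPKM (fragments per kilobase of transcript, scaled to all fragments), given first for the GFP-only control and then for Ptf1a misexpression, with no SD and no depth per sample.

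Class I molecules carry peptides from inside the cell to its surface: a heavy chain pairs with beta-2 microglobulin, peptides enter the endoplasmic reticulum through the TAP transporter, and chaperones there hold the complex until a peptide fits. Interferons act through paired receptor chains and JAK kinases on STAT factors, which with IRF factors switch on antiviral genes and also raise class I expression. Neurons of the developing brain are known to make class I transcripts at modest levels, and several interferon-induced genes limit the pathway that induces them.

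The words rose and fell are used for genes with a q-value under 0.05 in the authors' Cuffdiff test, rose where the Ptf1a level was the higher one. Of the 40 genes 28 were tested and 12 were not, the latter all below 1 FPKM in both groups. Among the tested, 11 rose (39.3%) and 2 fell (7.14%), beside 18.7% risen and 19.1% fallen of all 11876 tested genes. Their median log2 difference, taken as log2(FPKM + 0.1) under Ptf1a misexpression minus the control, was 0.32, beside -0.01 over all tested genes. The share that is called depends on level. Below a mean of 5 FPKM, 6 of 15 members rose and 0 fell, beside 25.4% and 8.38% of all tested genes at that level. Between 5 and 20 FPKM, 2 of 7 rose and 0 fell, beside 16.4% and 17.6%. Both risen genes of that band, H2-K1 and Ifitm3, were below 5 FPKM in the control. They reached the band through their Ptf1a level alone, so this count lends the result no weight. Above 20 FPKM, where 7.84% of all genes rose and 40.7% fell, 3 of 6 members rose and 2 fell. The risen genes above 20 FPKM were B2m, H2-D1 and Calr, all of the class I pathway. Other thresholds gave other counts beside other backgrounds. At q under 0.01, 10 members rose and 2 fell, beside 12.9% and 12.9% of all tested genes, and at q under 0.1 the counts were 13 and 3, beside 22.2% and 22.7%. With a 1.5-fold minimum, 9 rose and 1 fell, beside 13% and 7.7%. Among genes of at least 1 FPKM in either group, 11 rose and 2 fell, beside 17.9% and 21.1%, and at 5 FPKM 6 rose and 2 fell, beside 13.4% and 29.5%. Stat3, Irf1 and Irf2 passed the 1 FPKM minimum, and H2-K1, Ifitm3 and Usp18 the 5 FPKM one, through their Ptf1a level alone, so these last counts lend the result no weight. A stricter reading of the deposited test statistic as a normal deviate, adjusted over all tested genes, called 3.29% risen and 2.79% fallen; by this normal-based q 5 members rose and 1 fell.

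**Figure D1:**
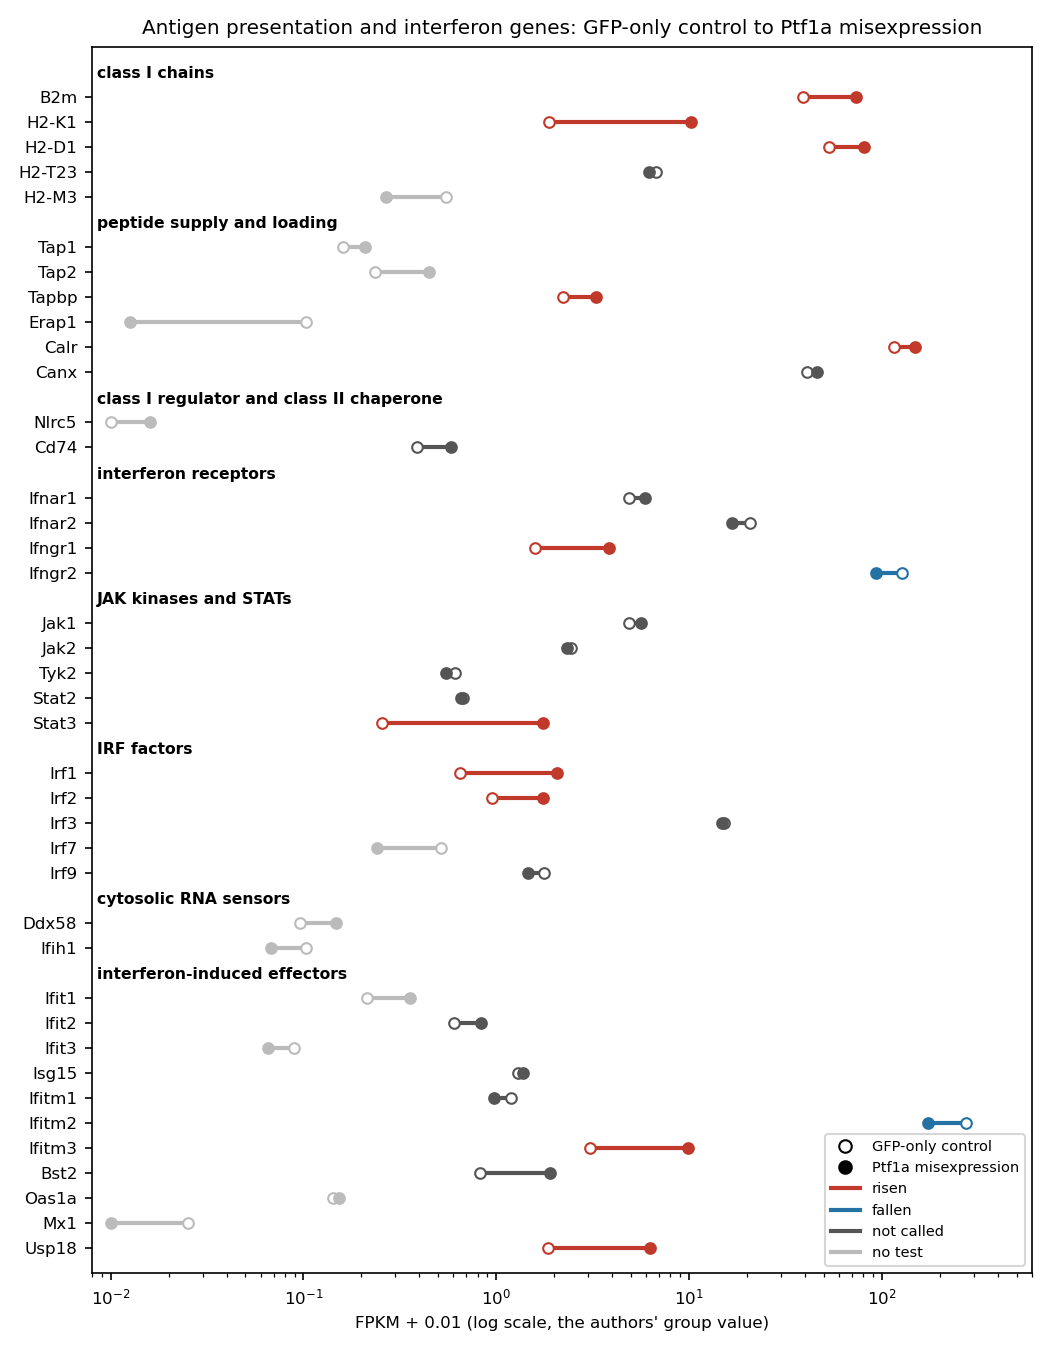
Level of each of the 40 genes (FPKM + 0.01, log axis, the authors' group value) in the GFP-only control (open) and under Ptf1a misexpression (filled), grouped by role and coloured by call. B2m, H2-K1 and H2-D1 sit to the right of their controls, whereas most interferon-induced genes lie below 2 FPKM in both groups, apart from Ifitm2, Ifitm3 and Usp18.

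**Figure D2:**
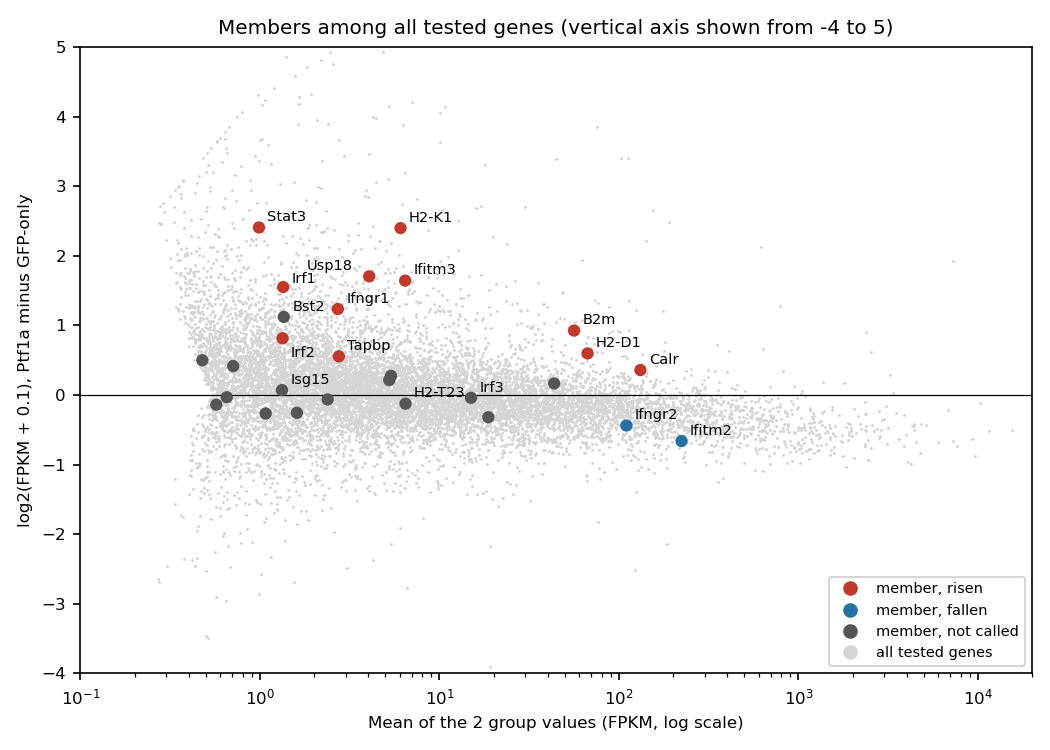
Difference in log2(FPKM + 0.1), Ptf1a misexpression minus control, against the mean of both group values (log axis) for all tested genes (grey) and the tested members (coloured by call); 35 genes lie above the shown range and 12 below it. Among the abundant genes, which mostly sit under 0, B2m, H2-D1 and Calr lie above it and Ifngr2 and Ifitm2 below it.

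The members differ in the regulatory sequence before their start sites, which is shown here for those whose levels are set against each other below. Promoters (250 bases before the start to 50 after it, RefSeq, build GRCm38.p6, matched by symbol) were found for 35 of the 40 genes. Each was searched on both strands for the core of the interferon-stimulated response element (ISRE), spelled GAAA, 2 bases of any kind and GAAA again, which IRF factors and the STAT-IRF complex bind, and for the STAT site TTCNNNGAA (GAS), which reads the same on both strands. In the lines below, each stretch runs 5′ to 3′ on the gene's strand and capitals mark ISRE matches, or in Irf1 the GAS match. B2m (chr2:122147537-122147686, plus strand), a risen class I gene, has 1 ISRE beginning 139 bases upstream of its start; Isg15 (chr4:156200819-156200918, minus strand) has 3 overlapping ones; Bst2 (chr8:71537473-71537622, minus strand) has 2; Ifitm2 (chr7:140955962-140956061, minus strand), which fell, has 1; Ifitm3 (chr7:141010716-141010742, minus strand), which rose, has 2 just inside its transcript, of which only that site is shown; and Irf1 (chr11:53769914-53770013, plus strand) has 1 GAS beginning 90 bases upstream.
B2m: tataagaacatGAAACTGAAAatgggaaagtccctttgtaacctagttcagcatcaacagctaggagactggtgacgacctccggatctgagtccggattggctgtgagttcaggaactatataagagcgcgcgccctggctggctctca
Isg15: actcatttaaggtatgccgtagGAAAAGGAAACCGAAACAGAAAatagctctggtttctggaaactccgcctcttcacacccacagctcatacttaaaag
Bst2: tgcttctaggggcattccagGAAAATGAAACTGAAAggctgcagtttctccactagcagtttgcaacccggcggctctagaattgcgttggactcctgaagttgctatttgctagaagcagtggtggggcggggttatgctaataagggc
Ifitm2: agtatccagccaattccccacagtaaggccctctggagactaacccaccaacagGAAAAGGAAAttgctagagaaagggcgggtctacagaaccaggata
Ifitm3: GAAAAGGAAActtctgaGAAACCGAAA
Irf1: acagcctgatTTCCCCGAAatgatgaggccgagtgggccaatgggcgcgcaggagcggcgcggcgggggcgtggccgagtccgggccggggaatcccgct

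An ISRE match was found in 14 of the 35 members (40%), against 3.99% of all 27025 genes in the promoter table and 3.44% of its promoters. Of these 14 genes 3 rose (B2m, Irf2 and Ifitm3), 1 fell (Ifitm2), 4 were not called (H2-T23, Stat2, Isg15 and Bst2) and 6 had no test (Erap1, Ddx58, Ifih1, Ifit1, Ifit3 and Oas1a). A GAS match was found in 9 members (25.7%), against 9.55% of all genes. The GAS genes comprised 3 that rose (Irf1, Irf2 and Ifitm3), 4 not called (Ifnar1, Ifnar2, Ifit2 and Bst2) and 2 without a test (H2-M3 and Oas1a). Bst2 and Ifitm3 each have an ISRE that overlaps a GAS by 3 bases. H2-K1, H2-D1, Calr, Tapbp, Ifngr1 and Stat3, all risen, had neither string in this window, which says nothing of other sites or of less exact ones. Usp18, also risen, was not searched, and nor were Tap2, Nlrc5, Cd74 and Mx1, since no promoter was found for them.

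**Figure D3:**
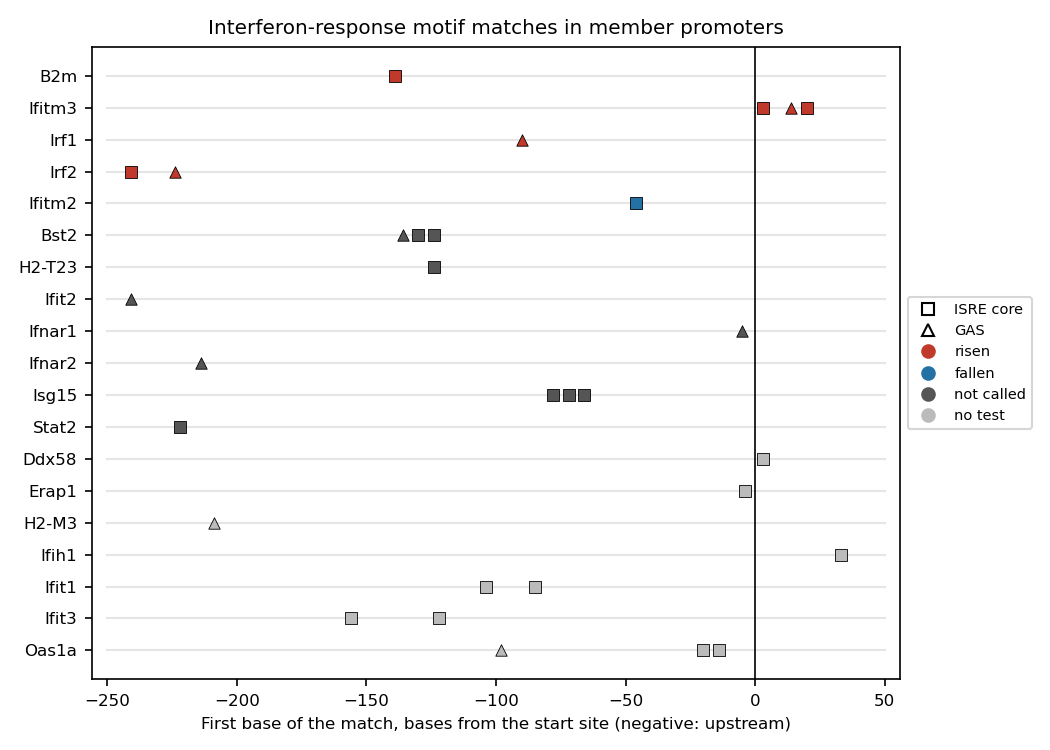
Place of each ISRE core (square) and GAS (triangle) match in the member promoters, as bases from the start site, with genes ordered and coloured by call. Genes with matches occur in every class of call: Isg15, with 3 ISRE matches between 78 and 66 bases upstream, was not called, whereas B2m, with 1 at 139 bases, rose. Isg15 was at 1.29 and 1.36 FPKM and B2m at 38.7 and 73.7 FPKM, so their calls differ in precision.

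Class I chains rose in 3 of 4 tested members, beside 18.7% of all tested genes. That background was 7.84% above 20 FPKM, where B2m and H2-D1 lay, and 16.4% between 5 and 20 FPKM, where H2-K1 lay by its mean. H2-K1 reached that band through its Ptf1a level alone, and below 5 FPKM the background was 25.4%. B2m, the light chain shared by all class I molecules (chromosome 2, 121945844 to 122011925, mm9), stood at 38.7 FPKM in the control and 73.7 FPKM under Ptf1a misexpression, a 1.90-fold rise. The authors' deposited table gave it a log2 fold of 0.93 with q = 0.000329 (Cuffdiff). This was the smallest q of the test, reached by 9 of the 28 tested members and by 1803 of all 11876 tested genes. Dividing that log2 fold by the deposited test statistic gives 0.31, which stands in here for a standard error. H2-K1, a classical heavy chain (chromosome 17, 34132957 to 34137278, mm9), went from 1.87 to 10.3 FPKM, or 5.50-fold. Its log2 fold was 2.46 in the authors' deposited table, with an implied standard error of 0.45. H2-D1, the other classical heavy chain (chromosome 17, 35400039 to 35462354, mm9), went from 53.2 to 80.5 FPKM, or 1.51-fold. H2-D1 was thus the main heavy chain transcript in both groups, at 28.5 times the level of H2-K1 in the control and 7.84 times under Ptf1a misexpression. The summed level of H2-K1 and H2-D1 went from 55.0 to 90.7 FPKM, or 1.65-fold, beside 1.90-fold for their partner B2m; the difference between these ratios was not tested.

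Neither nonclassical chain among the members was called. H2-T23, the peptide-presenting chain also called Qa-1, was at 6.76 and 6.19 FPKM, not called. H2-M3, which presents formylated peptides, stood at 0.540 and 0.258 FPKM without a test. Among heavy chains and relatives outside the members, H2-T10 (5.42 to 7.83 FPKM) and the lipid-presenting Cd1d1 (9.63 to 12.6 FPKM) rose, and H2-Q4 (4.87 and 6.45 FPKM) and the neonatal Fc receptor Fcgrt (1.13 and 1.36 FPKM) were not called. H2-Ke2 (329 to 269 FPKM) and H2-Ke6 (14.1 to 9.38 FPKM) fell; they lie in the same region and carry its name, but encode a prefoldin subunit and a steroid dehydrogenase. Together that list had 2 risen and 2 fallen of 9 tested, 22.2% each way, beside 18.7% and 19.1% of all tested genes. Its 2 fallen genes were H2-Ke2 and H2-Ke6, so no heavy chain or relative in it fell.

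Class I genes resemble each other, so their levels depend on how shared reads were assigned. Of the 50-base stretches in H2-K1 transcripts (GENCODE M21) 6.87% occur in another gene, against 13.9% for H2-D1, 28.8% for H2-T23 and 0% for B2m. The read assignment settings were not given in the sources used here, and the CD1 alleles were not compared with the reference strain. The locus of H2-D1 holds 3 listed genes, among them H2-Q1 (0.106 and 0.172 FPKM). That of H2-T23 also holds 3, among them H2-T24 (0.600 and 0.981 FPKM). B2m shares its locus with Patl2 and Trim69, both listed at 0. The H2-D1 call did not hold with the q recomputed from a normal distribution (0.0985), while H2-K1 (6.85e-06) and B2m (0.0461) still passed. Across the surrounding region, from Tapbp to H2-M3 (chromosome 17, 34056423 to 37411430, mm9), 15 of 92 tested genes rose (16.3%) and 19 fell (20.7%). Over all tested genes the shares were 18.7% and 19.1%.

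Of the 6 genes that supply and load peptides, 3 were tested and 2 rose, beside 18.7% of all tested genes. That background was 7.84% above 20 FPKM, where the risen Calr lay, and 25.4% below 5 FPKM, where the risen Tapbp lay. Calr (calreticulin), which holds heavy chains for loading and also folds many other glycoproteins, rose from 115 to 148 FPKM, or 1.28-fold. Tapbp (tapasin), which bridges class I to the TAP transporter, rose from 2.21 to 3.29 FPKM, or 1.49-fold. Canx (calnexin), which binds new heavy chains, was not called at 41.0 and 46.0 FPKM. Neither risen gene passed with the normal-based q (0.421 for Calr and 0.599 for Tapbp). The transporter itself was below 0.5 FPKM and had no test, its chains Tap1 at 0.151 and 0.200 FPKM and Tap2 at 0.224 and 0.437 FPKM. The peptide trimmer Erap1 stood at 0.0936 and 0.00269 FPKM, also without a test. No statement on a difference can be made for these 3 genes.

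Other genes of this step gave 4 risen and 3 fallen of 20 tested, shares of 20.0% and 15.0% that lie near those of all tested genes. Pdia4, a folding enzyme of the endoplasmic reticulum (41.0 to 57.2 FPKM), the chaperone Hspa5 (122 to 154 FPKM) and the peptidase Lnpep (0.372 to 0.746 FPKM) rose. So did Pdia3, a disulphide isomerase of the class I loading complex (94.5 to 117.9 FPKM), while others that act on new glycoproteins there were not called, all 4 chosen after their values were seen: Ganab (7.19 and 6.62 FPKM), Uggt1 (1.09 and 1.29 FPKM) and Clgn (1.06 and 1.502 FPKM). The fallen genes were Psmb10 (32.3 to 16.4 FPKM), an immunoproteasome subunit, and both subunits of the interferon-inducible proteasome activator, Psme1 (257 to 193 FPKM) and Psme2 (363 to 264 FPKM). The activator and Psmb10 thus fell in the group in which B2m and the classical heavy chains rose. These 3 fallen genes lay above 20 FPKM, where 40.7% of all tested genes fell. By the normal-based q Psmb10 kept its call (0.00906), while Psme1 (0.267) and Psme2 (0.286) lost theirs. Blmh (68.6 and 69.5 FPKM) and Sec61a1 (25.8 and 28.5 FPKM) were not called. The other immunoproteasome subunits, chosen after their values were seen, were low: Psmb8 was not called at 0.672 and 1.03 FPKM, and Psmb9 stood at 0.229 and 0.579 FPKM without a test.

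The transcriptional activator of class I genes, Nlrc5, was listed at 0 in the control and at 0.00609 FPKM under Ptf1a misexpression, without a test. Cd74, the invariant chain of class II molecules and a marker of professional antigen-presenting cells, was not called at 0.378 and 0.576 FPKM. Class II genes and their regulators gave 2 risen (18.2%) and 1 fallen (9.09%) of 11 tested, beside 18.7% and 19.1% of all tested genes. The class II chain H2-Aa fell from 1.57 to 0.462 FPKM, whereas the lysosomal reductase Ifi30 (0.984 to 3.01 FPKM) and the protease Ctsl (36.7 to 51.6 FPKM) rose. Nfyc (71.7 and 78.5 FPKM) and Nfyb (23.5 and 28.4 FPKM), general promoter-binding factors, were not called.

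Among the receptors, the chains for interferon gamma went opposite ways. Ifngr1, the ligand-binding chain (chromosome 10, 19311764 to 19330031, mm9), rose from 1.58 to 3.85 FPKM, or 2.44-fold. Ifngr2, the signalling partner (chromosome 16, 91547339 to 91564252, mm9), fell from 127 to 93.4 FPKM. Ifngr2 remained the more abundant by far, at 80.2 times the level of Ifngr1 in the control and 24.2 times under Ptf1a misexpression. The authors' deposited table gave log2 folds of 1.29 for Ifngr1 and -0.44 for Ifngr2, with implied standard errors of 0.49 and 0.21. Both calls were lost with the normal-based q (0.0985 for Ifngr1 and 0.268 for Ifngr2). The chains for type I interferon were not called, Ifnar1 at 4.85 and 5.89 FPKM and Ifnar2 at 20.8 and 16.6 FPKM. Ifnar2, Il10rb, Ifnar1 and Ifngr2 lie side by side on chromosome 16 (91373028 to 91564252, mm9). Of these 4 neighbours only Ifngr2 was called, and Il10rb stood at 0.535 and 0.638 FPKM.

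Ligands were at or near 0. Of 21 rows for interferons and for 2 receptor chains of interferon lambda, 14 were listed at 0 in both groups, all were under 1 FPKM, and the 1 tested, Il10rb, was not called. Ifnb1, the first interferon made after viral sensing, was listed at 0 and 0.0508 FPKM, and Ifng at 0.324 and 0 FPKM, in rows without a test (both chosen after their values were seen).

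Of the kinases and STATs, Stat3 alone rose among the 5 members. Of all tested genes 18.7% rose, and 25.4% of those below 5 FPKM, where Stat3 lay. Stat3, which relays cytokine and gliogenic signals as well as interferon (chromosome 11, 100748124 to 100800825, mm9), went from 0.245 to 1.73 FPKM, or 7.06-fold, the largest ratio among the called members. Its log2 fold in the authors' deposited table was 2.82, with an implied standard error of 0.73. Jak1 (4.85 and 5.64 FPKM), Jak2 (2.44 and 2.33 FPKM) and Tyk2 (0.603 and 0.538 FPKM), the kinases bound to the receptors, were not called. Stat2, the STAT of the type I response, was not called either, at 0.662 and 0.645 FPKM.

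Among other regulators of the relay 3 rose and 3 fell of 13 tested, 23.1% each way, near the 18.7% and 19.1% of all tested genes. The STAT inhibitors Socs3 (2.15 to 3.49 FPKM) and Pias1 (14.0 to 22.1 FPKM) rose, as did the Irf2 partner Irf2bp2 (2.18 to 3.21 FPKM). Cish (12.47 to 8.42 FPKM) and Socs2 (40.7 to 30.9 FPKM), feedback inhibitors best known from growth hormone signalling, fell, as did Irf2bpl (7.56 to 5.73 FPKM). The phosphatases Ptpn2 (25.2 and 25.4 FPKM) and Ptpn1 (19.5 and 20.8 FPKM), which act on JAK kinases, were not called.

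Of the IRF factors 2 of 4 tested members rose, both below 5 FPKM, where 25.4% of all tested genes did (18.7% at any level). Irf1, an activator of class I and interferon genes (chromosome 11, 53583516 to 53591876, mm9), rose from 0.636 to 2.06 FPKM, or 3.23-fold. Irf2, which binds the same sites and often opposes Irf1, rose from 0.940 to 1.73 FPKM, or 1.84-fold. Neither passed with the normal-based q (0.155 for Irf1 and 0.486 for Irf2). Irf3, the factor held ready for viral sensing, was the most abundant (15.2 and 14.8 FPKM, not called), and Irf9, which joins Stat2 in the factor that binds ISREs, was not called at 1.76 and 1.46 FPKM. Irf7, which amplifies the type I response, stood at 0.509 and 0.231 FPKM without a test.

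The cytosolic RNA sensors were at the floor of the table, Ddx58 (RIG-I) at 0.0861 and 0.137 FPKM and Ifih1 (MDA5) at 0.0937 and 0.0575 FPKM, both without a test. Elsewhere in nucleic acid sensing 3 of 13 tested genes rose (23.1%) and 1 fell (7.69%), beside 18.7% and 19.1% of all tested genes. Below 5 FPKM, where the 3 risen genes lay, 25.4% of all tested genes rose. Above 20 FPKM, where the fallen gene lay, 40.7% of all tested genes fell. The adaptors Mavs (0.404 to 1.35 FPKM) and Myd88 (0.342 to 0.748 FPKM) and the RIG-I ligase Rnf135 (0.0754 to 0.654 FPKM) rose. The DNA exonuclease Trex1 fell from 28.4 to 17.3 FPKM. None of these calls held with the normal-based q. Tank (8.49 and 9.79 FPKM) and Azi2 (4.30 and 4.76 FPKM), adaptors of the kinase that activates Irf3, were not called.

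Interferon-induced effectors gave 2 risen (28.6%) and 1 fallen (14.3%) of 7 tested, and 4 had no test. Of all tested genes 18.7% rose and 19.1% fell. Above 20 FPKM, where the fallen Ifitm2 lay, 40.7% of all tested genes fell. Usp18, which strips Isg15 from proteins and blocks the type I receptor (chromosome 6, 121195924 to 121220935, mm9), rose from 1.85 to 6.27 FPKM, or 3.38-fold. Ifitm3, a membrane protein that restricts virus entry (chromosome 7, 148195489 to 148196643, mm9), rose from 3.07 to 9.81 FPKM, or 3.19-fold. Ifitm2, its neighbour in the same cluster (chromosome 7, 148140738 to 148141860, mm9), fell from 273 to 173 FPKM, and Ifitm1 between them was not called at 1.18 and 0.968 FPKM. Ifitm2 was the most abundant of all 40 genes in both groups, at 89.0 times the level of Ifitm3 in the control and 17.6 times under Ptf1a misexpression. The summed level of the 3 Ifitm genes therefore went down, from 278 to 184 FPKM, although Ifitm3 rose. Their transcripts are alike: 48.5% of the 50-base stretches of Ifitm2 and 10.0% of those of Ifitm3 occur in another gene, for Ifitm2 chiefly in unnamed gene models. Usp18, Ifitm3 and Ifitm2 still passed with the normal-based q (0.00522, 0.0163 and 0.0107).

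The other 8 effectors were below 2 FPKM in both groups, and of these 4 were not called and 4 had no test. Isg15, the ubiquitin-like modifier whose promoter holds 3 ISRE matches, stood at 1.29 and 1.36 FPKM (q = 0.919 in the authors' deposited table, Cuffdiff). Its implied standard error was 0.81, beside 0.31 for B2m, so a rise as large as that of B2m could have gone uncalled. Ifit2, an RNA-binding inhibitor of translation, was not called at 0.593 and 0.825 FPKM. Its relatives Ifit1 (0.204 and 0.349 FPKM) and Ifit3 (0.0794 and 0.0553 FPKM), each with 2 ISRE matches, had no test. Nor did Oas1a, which makes the activator of RNase L (0.133 and 0.142 FPKM), or Mx1, a GTPase against influenza (0.0153 FPKM and listed at 0). Bst2 (tetherin), which holds budding virions at the cell surface, stood at 0.818 and 1.90 FPKM and lay just outside the threshold (q = 0.0535 in the authors' deposited table, Cuffdiff). For Isg15, the modifier that Usp18 removes, the ratio of the group values was 1.05, beside 3.38 for Usp18. The difference between these ratios was not tested.

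Among 59 further interferon-induced genes, 13 were tested. Of all tested genes 18.7% rose and 19.1% fell, and below 5 FPKM the shares were 25.4% and 8.38%. Of the 13 genes 0 fell and 5 rose (38.5%), 3 of them below 5 FPKM. They were Irgm1, a GTPase of autophagy (0.667 to 2.15 FPKM), the lectin Lgals9 (0.575 to 1.51 FPKM), Ifi27l1 (5.10 to 9.69 FPKM) and, chosen after their values were seen, Cmpk2 (5.52 to 9.79 FPKM) and Eif2ak2, the RNA-activated kinase PKR (0.364 to 0.761 FPKM). Ly6e (41.7 and 45.7 FPKM) and the ISG15-conjugating enzyme Ube2l6 (10.1 and 10.6 FPKM) were not called. Of the 58 with a row, 50 were below 1 FPKM in both groups, among them Cxcl10 (0.0804 and 0.294 FPKM) and Rsad2 (0.0256 and 0.0752 FPKM), both chosen after their values were seen. Over all 191 further genes of antigen presentation and the interferon response, 80 were tested, 19 rose (23.8%) and 10 fell, with 0 risen by the normal-based q. That share of risen genes lay near the background, 18.7% of all tested genes and 25.4% of those below 5 FPKM.

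**Figure D4:**
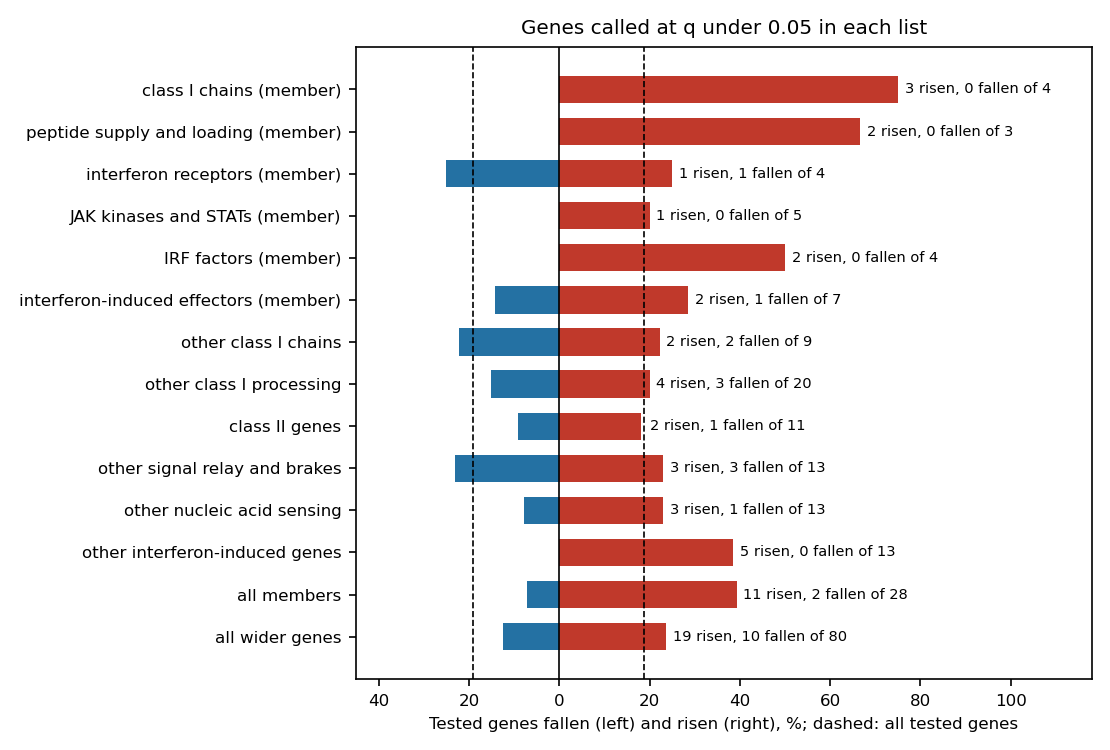
Share of tested genes that rose (right, red) or fell (left, blue) at q under 0.05 in each list with more than 2 tested genes, with counts; dashed lines mark 18.7% risen and 19.1% fallen among all tested genes. Members as a whole show 11 risen and 2 fallen of 28, and the further class I processing genes show 20.0% risen and 15.0% fallen. The 2 fallen genes among the other class I chains are H2-Ke2 and H2-Ke6, which are not class I chains.

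Cells other than neurons also carry these transcripts, so their markers are given beside the result. Of all tested genes 18.7% rose and 19.1% fell. Below 5 FPKM, where the called markers here lay apart from the red blood cell genes, the shares were 25.4% and 8.38%. Of 18 microglial and macrophage markers 12 were tested, 0 rose and 1 fell, Tyrobp (4.90 to 1.85 FPKM). Their summed level was 23.6 FPKM in the control and 19.7 FPKM under Ptf1a misexpression, with C1qb at 4.20 and 3.24 FPKM and C1qa at 2.29 and 2.33 FPKM, both not called. Singly they were mixed: C1qa, Fcer1g, Trem2, P2ry12, Cd68 and Mrc1 were higher under Ptf1a misexpression. All other markers of the list were lower, and only Tyrobp was called. The leukocyte genes Ptprc (0.0639 and 0.0172 FPKM) and Itgam (0.0400 and 0.00229 FPKM), chosen after their values were seen, were near 0. The 9 lymphocyte markers were all below 1 FPKM and had no test. Endothelial markers summed to 16.3 and 20.2 FPKM, with 2 of 6 tested risen (Esam, 0.689 to 1.95 FPKM, and Ramp2, 0.762 to 2.37 FPKM), while Egfl7 (6.25 and 4.76 FPKM), Slc2a1 (4.84 and 5.76 FPKM) and Cldn5 (2.87 and 4.09 FPKM) were not called; the junction markers Pecam1 (0.0989 and 0.205 FPKM) and Cdh5 (0.0224 and 0.0406 FPKM), chosen after their values were seen, had no test. Mural cell markers summed to 2.38 and 4.15 FPKM, with Pdgfrb (0.0286 to 1.20 FPKM) and Rgs5 (0.623 to 1.55 FPKM) risen and Kcnj8 (1.17 to 0.639 FPKM) fallen. Meningeal markers summed to 4.77 and 2.96 FPKM, with Dcn fallen (3.11 to 1.79 FPKM) and Lum (0.742 and 0.390 FPKM) and Slc6a13 (0.705 and 0.386 FPKM) not called. Red blood cell markers summed to 150 and 62.7 FPKM, with Hbb-b2, Hbb-y and Hba-x fallen and Hba-a2 (14.0 and 5.77 FPKM) not called. By the normal-based q only Pdgfrb, Hbb-y and Hba-x of the called genes in these lists kept their calls.

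Markers of progenitors and of neurons also differed between the groups. All 8 radial glia markers rose (Fabp7, Vim, Pax6, Sox2, Hes1, Hes5, Nes and Slc1a3), beside 18.7% of all tested genes. Their sum went from 1801 to 3455 FPKM, of which Fabp7 alone made 1652 and 3095 FPKM. Of 10 pyramidal neuron markers 7 fell and 1 rose, beside 19.1% and 18.7% of all tested genes. The sum went from 1887 to 1327 FPKM, of which Neurod6 alone made 1717 and 1190 FPKM. Tbr1, Fezf2, Bcl11b, Neurod2, Neurod6, Dcx and Map2 fell and Nrp1 rose. Above 20 FPKM, where Neurod2, Neurod6, Dcx and Map2 lay, 40.7% of all tested genes fell. By the normal-based q all 8 radial glia markers kept their calls, and of the called pyramidal markers only Tbr1 did (0.0278). The summed levels of endothelial, mural and radial glia markers were thus higher in the group in which B2m, H2-K1, H2-D1, Stat3, Usp18 and Ifitm3 rose, and those of microglial, meningeal and red blood cell markers lower; their part in these rises was not tested. In bulk RNA of this kind, fewer cells of a type and less RNA per cell cannot be told apart.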

How the data were processed

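RNA from 5 sorted samples was amplified from 2.1 to 7.8 ng with a low-input kit and read as 50-base pairs, per the labels' protocols. The submitters' processing notes list Cuffdiff, Cufflinks 2.1.1, TopHat2 2.0.8, CASAVA 1.8.2 and the build mm9; annotation and settings are not given in the sources used here. The authors deposited 1 FPKM value per gene and group, a log2 fold change, a signed test statistic (a score), and a p-value and q-value per gene, per the file headers. The heading PIG was read as the Ptf1a group, since the other heading was GFP. Nothing in the labels says that samples came from separate litters, so the spread between these samples may be technical. How the Cuffdiff p-values weigh that spread is unknown, since the settings are not given. Depth per sample is unknown.

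Calls used the deposited q under 0.05. Log2 differences used a pseudocount of 0.1 FPKM, which understates changes of weak genes. The implied standard error is the deposited log2 fold over the test statistic (median 0.47 over the tested members and 0.36 over all tested genes). The normal-based q came from a two-sided p of the test statistic, with Benjamini-Hochberg adjustment over 11876 tested genes; 45 rows without a statistic counted as not called. It and the motif search were tested on simulated data. Deposited starts were read as counting from 0 and printed from 1, which matched annotated transcript spans for 4968 of 20792 loci, against 629 otherwise. Shared 50-base stretches came from GENCODE M21 protein-coding transcripts of the members against all transcripts. Recorded synonyms matched 3 listed genes. Python 3.11.15, pandas 2.3.3 and scipy 1.17.1 were used.

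All members are named; of each further list, up to 3 called genes per direction with the largest difference and 2 uncalled genes with the highest mean; of marker lists, called genes and the highest. Some genes of the further lists are not reported here and were left out of every count over those lists. The members and lists were chosen with earlier results of these data known. Alternatives covered the q threshold, FPKM and fold minimums, pseudocount, centring and the source of the p-value and, chosen after seeing the data, shared sequence, shared loci and level bands.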

Additional observations from a re-analysis of the deposited data

How the results depend on the processing

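No paired analysis was possible because the table holds 1 merged value per group; for the same reason no replicate could be left out. The 11 risen members were 10 at a q under 0.01, 13 at 0.1, 11 among genes of at least 1 FPKM, 6 at 5 FPKM, 9 with a 1.5-fold minimum and 5 with the normal-based q. The 2 fallen members were 2, 3, 2, 2, 1 and 1 under these settings. The FPKM minimums say nothing of stability, since 3 risen members passed each one through their Ptf1a level alone. Without members sharing over 10% of 50-base stretches, 9 rose and 1 fell, and without those sharing a locus 9 and 2 did. With the normal-based q B2m, H2-K1, Stat3, Ifitm3, Usp18 and Ifitm2 kept their calls, against 3.29% risen and 2.79% fallen of all tested genes; the cause of the 7 losses was not tested. Of the 80 tested further genes, the 19 risen were 9 at 5 FPKM, 12 with 1.5-fold and 0 with the normal-based q. Of all genes tested at these settings 13.4%, 13% and 3.29% rose. The 10 fallen were 6 at a q under 0.01, 3 with 1.5-fold and 1 with the normal-based q. Of all tested genes 12.9%, 7.7% and 2.79% fell at these settings. The members' median log2 difference was 0.19 with a pseudocount of 1, 0.32 with 0.01, 0.33 when centred and 0.19 over all 40 genes. No called member changed direction under the pseudocounts or centring. Weak genes limit the comparison: 16 of the 40 were below 1 FPKM in both groups and 12 had no test.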
